A study of Mus musculus with 4 samples.

Results

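The LGI proteins and their ADAM receptors were examined in the cerebellum of 30-day-old mice that lack Dicer in cells with an active Gfap promoter. The family holds 7 genes, of which 4 encode secreted LGI proteins (Lgi1, Lgi2, Lgi3 and Lgi4) and 3 encode membrane receptors (Adam11, Adam22 and Adam23). Every non-control spot whose gene name was one of these 7 was taken, which gave 15 of the 41174 probes on the array, 8 for LGI genes and 7 for ADAM genes. Of the 7 genes, 6 passed the filter on dim probes and were tested, among 18025 genes of 28632 names.

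The mutants carried mGfap-Cre and Dicer flox/flox, and their littermate controls carried mGfap-Cre and Dicer +/flox, so that both groups had the Cre and at least 1 floxed allele. Dicer is the enzyme that cuts precursor hairpins into mature microRNAs. All animals were on a mixed background made by crossing the Gfap-cre line to mice with floxed Dicer. Each of 4 independent littermate pairs was hybridised on 1 two-colour array, with the mutant in Cy5 for pairs 1 and 3 and in Cy3 for pairs 2 and 4. The RNA was that of the whole cerebellum, while the Cre acts only where the mouse Gfap promoter is or was active.

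LGI proteins are secreted glycoproteins with leucine-rich repeats followed by a propeller domain. They bind ADAM11, ADAM22 and ADAM23, members of the ADAM family that lack protease activity and serve as receptors on the neuronal surface. Through ADAM22 the secreted proteins are tied to the scaffold PSD-95, to AMPA receptors and to Kv1 potassium channels, and mutations of LGI1 cause an inherited epilepsy in people. LGI4 is known above all from peripheral nerve, where Schwann cells release it and ADAM22 on the axon receives it. Mice without working Lgi4 myelinate their peripheral nerves late and poorly.

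The probes on which the results rest are 60 bases long, and the first 30 bases of each are printed here as the array files give them, with positions on mouse build mm9. Both Lgi4 probes are shown because they read separate stretches of the same transcript, the 3 Lgi1 probes because they lie at 3 places along the locus, and the brighter pair of Adam23 probes because their values diverged between pairs.
Lgi4 A_51_P217386, chr7:31855309-31855368, plus strand: catgctattagggctccttttcactcccag
Lgi4 A_52_P374556, chr7:31855708-31855767, plus strand: actggtccatcttcagcagttgtgagctga
Lgi1 A_52_P354617, chr19:38343056-38343115, plus strand: gagagaaaaattaaaccgagccaataaaaa
Lgi1 A_52_P298394, chr19:38380730-38380789, plus strand: taccaatatgcaattctcggaagcgattac
Lgi1 A_52_P609695, chr19:38382319-38382378, plus strand: agagcaactttggggaagctatgctcttcg
Adam23 A_51_P282144, chr1:63639339-63639398, plus strand: taatgactacagagcctcagatctgagaat
Adam23 A_52_P277205, chr1:63642544-63642603, plus strand: aaattttcaatgcacaacctgaacttttgt
The Lgi4 probes are separated by 339 bases of genome. Whether each probe lies in a coding or an untranslated part of its gene was not established.

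Per array, 26416 to 28914 probes exceeded background clearly for the mutant and 26311 to 27726 for the control. No spot was saturated, and precision is limited by there being 4 arrays. The 13 tested family probes were well above background in both channels of all 4 arrays. Values are log2 ratios of mutant over control, given for the 4 pairs in order and then as mean ± SD over the pairs (n = 4). Levels are log2 intensities of each animal's channel, normalized within and between arrays, and are compared between animals for 1 probe at a time. The exceptions are the astroglia and myelin markers, whose linear intensities were also summed over genes. In those sums the brighter probes weigh most. Dicer1 itself gave 0.04 ± 0.22 in whole tissue (limma, adjusted p = 0.947), and where its probe lies relative to the floxed part was not established, so it does not measure the deletion.

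Lgi4 was lower in the mutants than in their littermates by both of its probes. The family was chosen by that result, since it was proposed because Lgi4 had passed the test in this same comparison, and the values of Lgi4 are therefore a description. By its brighter probe (A_52_P374556), the Lgi4 level was 12.25, 11.48, 11.99 and 11.91 in the 4 mutants, against 13.44, 13.10, 12.85 and 13.01 in their control littermates. The highest mutant level lay below the lowest control level, so the groups did not overlap. The ratios of the 4 pairs were -1.18, -1.63, -0.86 and -1.10, with a mean of -1.19 ± 0.32, which is 2.29-fold lower in mutants. Pair 2 had the largest difference and pair 3 the smallest, and the SD over pairs was larger than the median SD of 0.16 over all tested genes.

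The dimmer Lgi4 probe (A_51_P217386) gave levels of 9.69, 9.05, 9.59 and 9.66 in mutants, against 10.93, 10.84, 10.68 and 10.54 in controls. Again every mutant lay below every control, and pair 2 again held the lowest mutant. Its ratios were -1.24, -1.78, -1.09 and -0.89, with a mean of -1.25 ± 0.38, or 2.38-fold lower. All 8 ratios of the 2 probes were below 0. The pairs with the mutant in Cy5 averaged -1.02 by the brighter probe and -1.16 by the dimmer one, and those with the mutant in Cy3 averaged -1.36 and -1.34, so the difference was present in both dye orders.

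**Figure D1:**
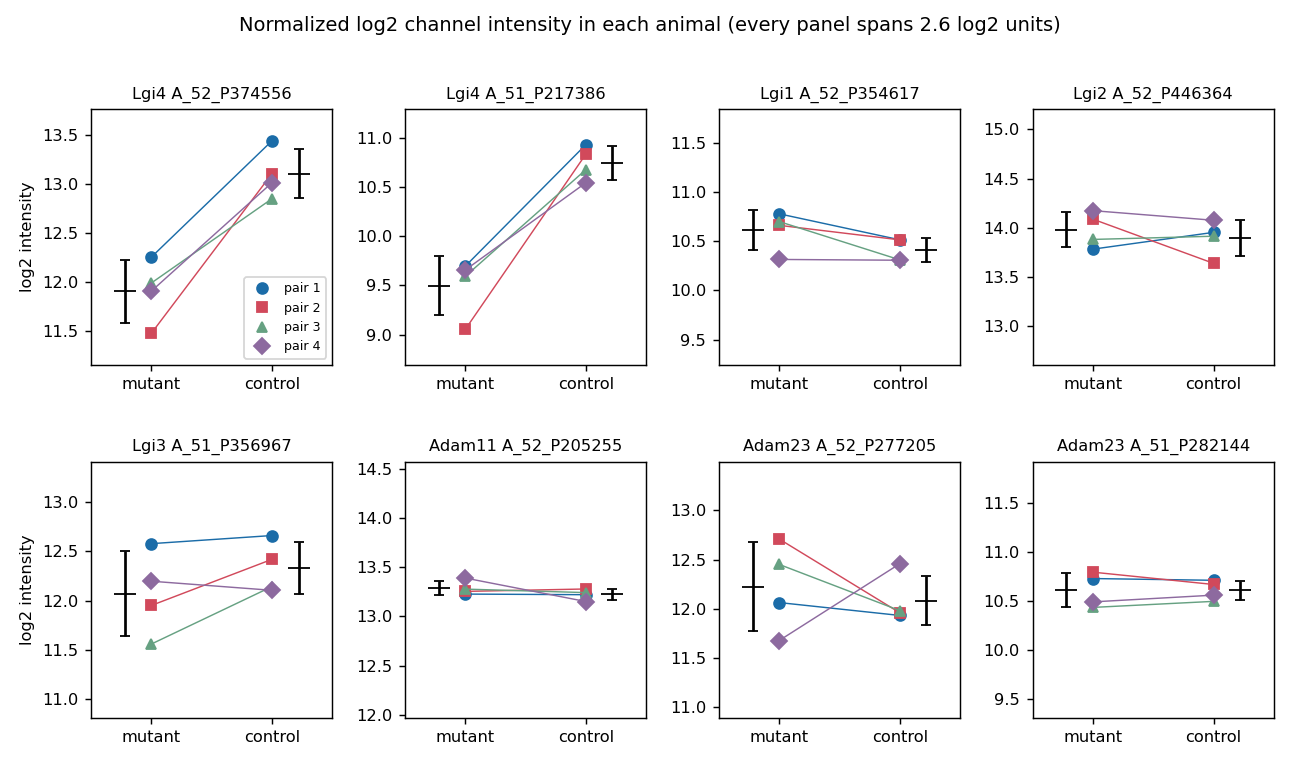
Normalized log2 channel intensity of 8 probes in the mutant (left) and control (right) animal of each littermate pair, joined by a line, with mean and SD of each group beside the points (n = 4). In both Lgi4 panels all 4 lines run upward to the control and the groups do not overlap, while the groups overlap for the other 6 probes.

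Among the 18025 tested genes, the mean ratio of Lgi4 was the 12th lowest. By limma with Benjamini-Hochberg adjustment over all these genes, 80 genes were called lower (0.444% of those tested), 106 were called higher (0.588%), and 186 were called in either direction (1.03%). Of the 6 tested family members, 1 was called lower and 0 were called higher, and since Lgi4 selected the family nothing is read from that count. Lgi4 was 9th from the lowest among the genes called lower. At the edge of the calls, Smim3 (ratio -0.74, adjusted p = 0.0491) was the last gene inside the threshold on the lower side and Ntrk2 (ratio -0.45, adjusted p = 0.0502) the first outside it. A ratio below 0 in all 4 pairs was seen for 7.33% of genes with values in every pair, and 4 mutants all below the 4 controls for 1.82% of them. The call of Lgi4 was kept under 17 of 18 other processing settings and was lost without replicate 1, where the ratio fitted with the dye term was -1.11. These settings reuse the arrays by which Lgi4 selected the family, so this too is a description.

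**Figure D2:**
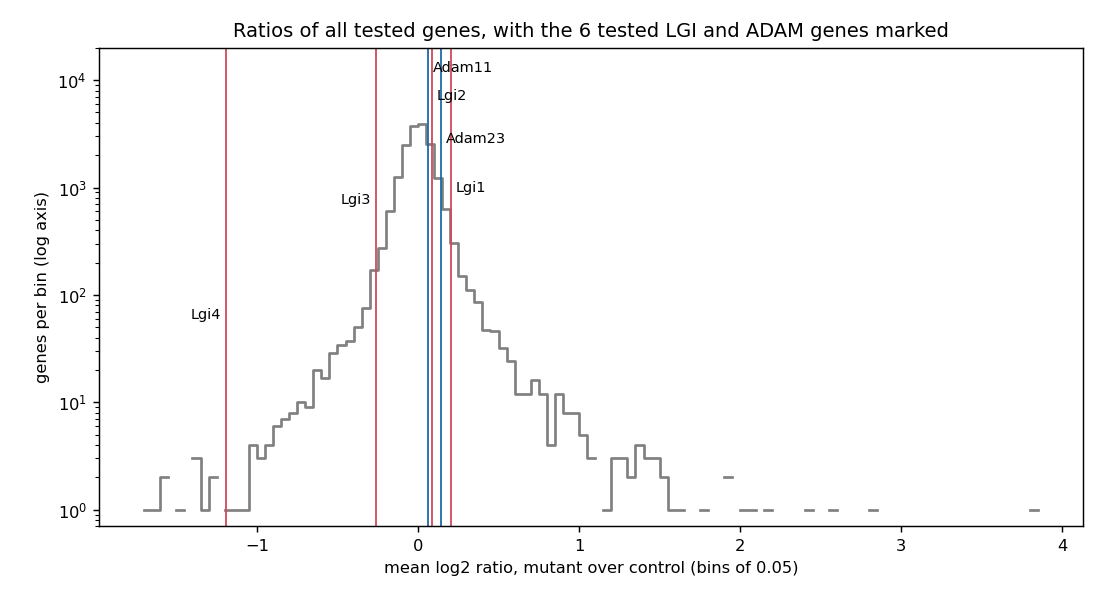
Histogram of the mean log2 ratio, mutant over control, of the 18025 tested genes in bins of 0.05 (vertical axis logarithmic), with red lines at the LGI genes and blue lines at the ADAM genes. Lgi4 stands in the sparse lower tail at -1.19, and the other 5 tested family genes lie between -0.26 and 0.20.

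The other 5 tested members had mean ratios between -0.26 and 0.20, and their adjusted p values ran from 0.378 to 0.931. In whole tissue, fewer cells of a type and less RNA per cell cannot be told apart, which applies to Lgi4 and to each gene below.

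Lgi1, the neuronal ligand that links ADAM22 and ADAM23 across the synapse, had mutant levels of 10.78, 10.66, 10.70 and 10.32, against control levels of 10.51, 10.51, 10.31 and 10.31 (A_52_P354617). The mutant was above its own littermate in each pair, but the groups overlapped, because the mutant of pair 4 was within the range of the controls. The ratios were 0.26, 0.15, 0.39 and 0.01, with a mean of 0.20 ± 0.16, and the gene was not called (limma, adjusted p = 0.378, 95% interval 0.04 to 0.36 before adjustment). The array assigns A_52_P354617 to a different transcript record from the other probes of Lgi1. Those other probes lie farther along chromosome 19 and gave 0.41, 0.11, 0.29 and 0.22 (mean 0.26 ± 0.12, A_52_P298394) and 0.34, 0.13, 0.09 and 0.53 (mean 0.27 ± 0.20, A_52_P609695). Tested on their own among all probes, they had adjusted p values of 0.268 and 0.507. All 12 values of the 3 Lgi1 probes were above 0, but the probes share the same 4 pairs, so these are not 12 independent values. Counted by 1 probe per gene, 7.76% of genes had a ratio above 0 in all 4 pairs. The fitted ratio of Lgi1 ran from 0.17 to 0.24 over 18 other settings, but the sign of single pairs depended on the processing. With the median of each array set to 0 in place of loess, pair 2 stood below 0 by all 3 probes, at -0.06, -0.09 and -0.06. With the scanner software's processed signals, pair 4 stood at -0.0024 by A_52_P354617.

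Lgi3, whose human counterpart is mutated in an inherited hyperexcitability of peripheral nerves, had levels of 12.58, 11.95, 11.56 and 12.20 in mutants, against 12.66, 12.42, 12.14 and 12.11 in controls (A_51_P356967, chr14:70937619-70937678). The mutants of pairs 2 and 3 lay below every control, while those of pairs 1 and 4 were within the range of the controls. The ratios were -0.08, -0.47, -0.58 and 0.09, with a mean of -0.26 ± 0.32, not past the threshold (limma, adjusted p = 0.668, 95% interval -0.58 to 0.06 before adjustment). That interval holds both no difference and a decrease of Lgi3.

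Lgi2, mutated in an epilepsy of Lagotto Romagnolo puppies, gave ratios of -0.17, 0.45, -0.03 and 0.10 (mean 0.09 ± 0.27, limma, adjusted p = 0.853, A_52_P446364, chr5:52924807-52924866, minus strand). Its level was 13.78 to 14.17 in mutants and 13.64 to 14.08 in controls. Pair 2 held the highest ratio and pair 1 the lowest, and the mixed signs followed the dye. Pairs 1 and 3, with the mutant in Cy5, averaged -0.10, and pairs 2 and 4, with the mutant in Cy3, averaged 0.27. The second Lgi2 probe gave 0.13, 0.09, 0.02 and 0.23 (mean 0.12 ± 0.09, adjusted p = 0.795 when tested on its own, A_51_P361830, chr5:52929239-52929298). Its level was 9.60 to 9.85 in mutants and 9.37 to 9.74 in controls, so that mutants and controls overlapped for both probes.

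**Figure D3:**
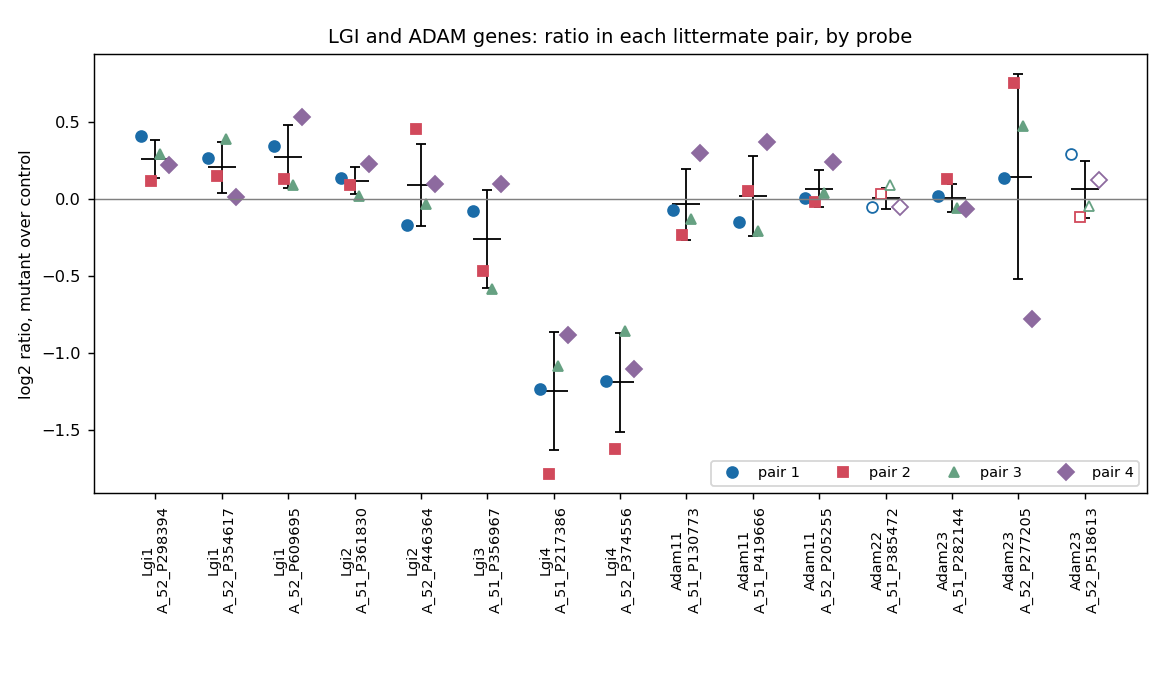
Log2 ratio, mutant over control, of every probe of the 7 genes in each littermate pair, with mean and SD (n = 4); open symbols mark the probes of Adam22 and Adam23 that were not tested because they were dim. The 8 Lgi4 points lie between -1.78 and -0.86, the 12 Lgi1 points lie between 0.01 and 0.53, and one Adam23 probe spans -0.78 to 0.75.

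Among the receptors, Adam22 could not be measured. ADAM22 is the main neuronal partner of LGI1 and the axonal receptor for LGI4, and mice without it have seizures and poor peripheral myelin. Its single probe (A_51_P385472, chr5:8092270-8092329, minus strand) was not well above background in the mutant or the control channel of any array. Its ratio of 0.00 ± 0.07 thus compares near-background signals and gives no size for a difference in Adam22.

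Adam23, which binds LGI1 on the presynaptic side, gave probes that diverged. By the brightest (A_52_P277205) its levels were 12.06, 12.71, 12.45 and 11.68 in mutants, against 11.93, 11.96, 11.98 and 12.46 in controls. The mutant was above its littermate in pairs 1, 2 and 3 and below it in pair 4, where the mutant held the lowest and the control the highest of their groups. The ratios were 0.13, 0.75, 0.47 and -0.78, with a mean of 0.14 ± 0.67 (limma, adjusted p = 0.931, 95% interval -0.48 to 0.76 before adjustment). A larger SD over pairs was found for 0.666% of tested genes. The ratio fitted with the dye term was 0.53 without replicate 4 and -0.24 without replicate 2, neither past the threshold.

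The probe of Adam23 in the shown pair that lies nearer to the start of the gene (A_51_P282144) had ratios of 0.02, 0.13, -0.06 and -0.07 and a mean of 0.00 ± 0.09. The same littermates thus differed by at most 0.13 at this stretch of the gene and by up to 0.78 at the other. The third Adam23 probe (A_52_P518613, chr1:63578679-63578738) was well above background in 1 mutant channel and in 0 control channels, and its ratio of 0.06 ± 0.18 was not tested. The wide spread was seen at A_52_P277205 and not at the other tested probe of the gene.

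Adam11, a receptor that in mice holds Kv1 channels at the basket cell terminals around Purkinje cells, was read most brightly by 1 of its 3 probes (A_52_P205255, chr11:102641316-102641375). Its level was 13.23, 13.26, 13.28 and 13.39 in mutants, against 13.22, 13.28, 13.24 and 13.15 in controls. The groups overlapped, and pair 4 held both the highest mutant and the lowest control. The ratios were 0.01, -0.02, 0.04 and 0.24, with a mean of 0.06 ± 0.12 (limma, adjusted p = 0.873, 95% interval -0.11 to 0.24 before adjustment). The other Adam11 probes averaged 0.02 ± 0.26 (A_51_P419666) and -0.04 ± 0.23 (A_51_P130773), and pair 4 was the highest of the 4 pairs by all 3 probes. Without replicate 4, the ratio fitted with the dye term was -0.0019 by the brightest probe.

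**Figure D4:**
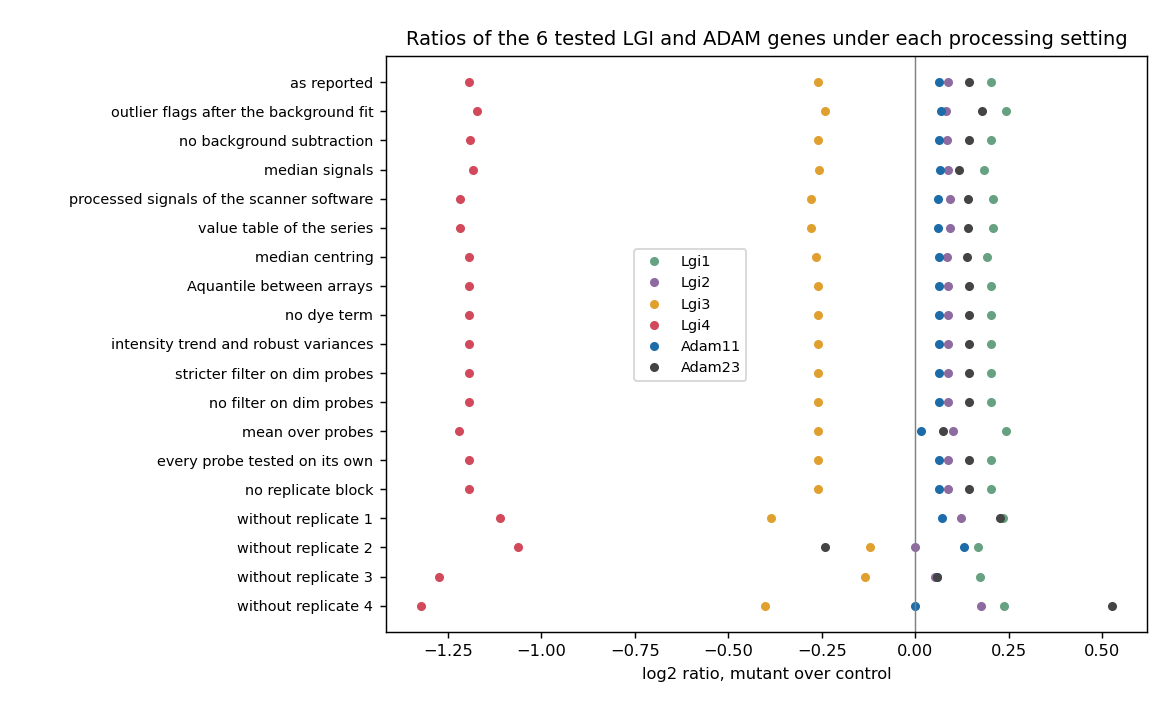
Fitted log2 ratio, mutant over control, of the 6 tested family genes as reported (top) and under 18 other processing settings (1 row each); with a replicate left out, the dye term makes it differ from the plain mean of the remaining pairs. Lgi4 stays between -1.32 and -1.06, while Adam23 moves between -0.24 and 0.53 when single replicates are left out.

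The synaptic and axonal partners of the LGI and ADAM22 complex were taken as a list of 21 genes, comprising PSD-95 family scaffolds, AMPA receptor subunits, their auxiliary TARP subunits, Kv1 channel subunits, the axonal proteins Cntn2 and Cntnap2, and the Nogo receptor Rtn4r. All 21 were tested, 1 was called lower and 0 were called higher, beside 0.444% and 0.588% of all tested genes. Their median ratio was -0.04 against 0.00 over all tested genes. Of the 21, 18 had a mean ratio below 0, compared with 8846 of the 18025 tested genes, and 4 had an unadjusted p under 0.05, compared with 1692 of all genes. The called gene was Gria4, an AMPA receptor subunit, with ratios of -0.18, -0.76, -0.13 and -0.68 and a mean of -0.44 ± 0.33 (limma, adjusted p = 0.0487). The larger differences were in pairs 2 and 4, which carried the mutant in Cy3. The call was lost under 12 of 18 other settings, where the adjusted p of Gria4 ran as high as 0.365.

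Dlg4, which encodes PSD-95, had ratios of -0.14, -0.16, -0.11 and -0.24 and a mean of -0.16 ± 0.05 that was not called (limma, adjusted p = 0.465). The TARP gene Cacng4 averaged -0.26 ± 0.12 (adjusted p = 0.172) and the Kv1 auxiliary subunit Kcnab2 averaged -0.30 ± 0.26 (adjusted p = 0.491). The channel subunits Kcna1 (-0.06 ± 0.23) and Kcna2 (-0.01 ± 0.06) were near 0, as was Cntnap2 (-0.02 ± 0.05), which organises Kv1 channels on the axon. The channel subunits Kcna4 and Kcna6 averaged -0.13 ± 0.13 and -0.04 ± 0.19. These genes were named after their values were known, and none but Gria4 passed the test. Dlg4, Cacng4 and Kcnab2 were, beside Gria4, the partners with an unadjusted p under 0.05 by limma. Related genes of the list had smaller means: Dlg1 -0.01, Dlg2 -0.10, Dlg3 0.02, Cacng2 -0.09, Cacng3 -0.02, Cacng8 0.09 and Kcnab1 -0.01. So did the other AMPA receptor subunits, with Gria1 at -0.02, Gria2 at -0.04 and Gria3 at 0.07. The named genes therefore do not stand for their families.

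Other ADAM genes, whose proteins keep the protease site that ADAM11, ADAM22 and ADAM23 lack, were taken as a list of 9. Of these, 8 were tested, 0 were called in either direction by limma, 1 had an unadjusted p under 0.05, and the median was 0.05. Among the 18025 tested genes, 1.03% were called in either direction and 1692 genes had an unadjusted p under 0.05. Adam17, which sheds TNF and other membrane proteins, gave ratios of 0.73, 0.14, 0.27 and 0.75 (mean 0.47 ± 0.31, adjusted p = 0.301). Adam9 gave 0.20 ± 0.17 (adjusted p = 0.587). Adam12 was above background on no array.

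A list of 26 other leucine-rich repeat genes of the nervous system, among them the Slit, Lrrtm, Slitrk, Lingo and Amigo families, had 22 tested members. The cell adhesion gene Amigo2 was called higher, with ratios of 1.03, 0.97, 1.00 and 1.27 and a mean of 1.07 ± 0.14 (limma, adjusted p = 0.00757). No other gene of this list was called, and the list's median was 0.00. Among all tested genes, 0.588% were called higher. With outlier spots kept in the background fit, Amigo2 missed the threshold (adjusted p = 0.0715).

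**Figure D5:**
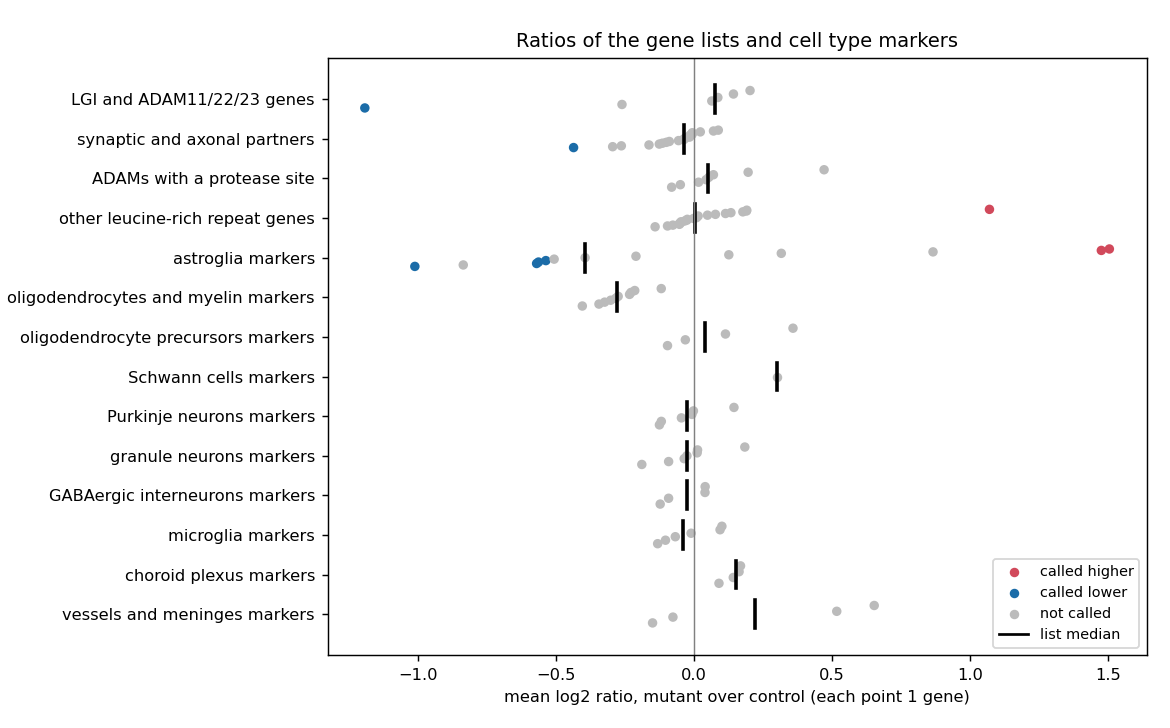
Mean log2 ratio, mutant over control, of each tested gene in the 4 pathway lists (top) and the 10 cell type marker lists, with called genes coloured and list medians as black bars. Calls fall on Lgi4, Gria4, Amigo2 and 6 astroglia markers, and the 10 myelin genes all lie below 0 without a call.

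The 5 tested genes whose ratios lay closest to those of Lgi4 in the 4 pairs, by root mean square difference on the log2 scale, were Fam107a (0.188), Rida (0.239), S100a10 (0.257), Ntsr2 (0.267) and Adcy2 (0.311). Fam107a, an actin-associated protein, had ratios of -1.31, -1.73, -1.19 and -1.19, so that pair 2 was the lowest as it was for Lgi4. Rida, an enzyme that clears reactive imines, had -1.33, -1.36, -1.14 and -1.35, with less spread between pairs than Lgi4. S100a10, the partner of annexin A2, averaged -0.99 ± 0.15, the neurotensin receptor Ntsr2 -1.01 ± 0.26 and the adenylyl cyclase Adcy2 -0.96 ± 0.09. They were picked for this likeness over 4 pairs, which is a description.

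Markers of the cell types in the tissue were read beside the values of Lgi4. All 6 Purkinje and all 7 granule neuron markers passed the filter in this cerebellar RNA and none of them was called. Of 13 astroglia markers, 4 were called lower, namely Ntsr2 (-1.01 ± 0.26), Slc1a2 (-0.57 ± 0.11), S100b (-0.56 ± 0.09) and Aqp4 (-0.54 ± 0.26), and 2 were called higher, namely Aldh1l1 (1.50 ± 0.23) and Gfap (1.47 ± 0.35). Over all tested genes, 0.444% were called lower and 0.588% higher. The median of the astroglia markers was -0.39. Their summed linear intensity was 238927 to 290716 in mutants against 305536 to 339619 in controls. Leaving out replicate 1 or replicate 3, or using the scanner software's processed signals or the series' value table, took the number of astroglia markers called lower to 0. It was 1 in the fit with no replicate block, and 2 with median centring and with outlier spots kept in the background fit. The part of these markers in the value of Lgi4 was not tested.

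The 10 markers of oligodendrocytes and myelin all had means below 0 and none was called (limma, with 3 at an unadjusted p under 0.05). Of the 18025 tested genes, 8846 had a mean below 0 and 1692 an unadjusted p under 0.05. The median of the myelin markers was -0.28. Their summed linear intensity of 203793 to 256786 in mutants overlapped that of 244592 to 299868 in controls. The largest were Opalin (-0.40 ± 0.20, adjusted p = 0.186) and Cldn11 (-0.34 ± 0.17, adjusted p = 0.152), and Opalin passed the threshold in 1 of 18 other settings, without replicate 2 (adjusted p = 0.0319). Of 5 Schwann cell markers, 1 passed the filter, Pou3f1, which averaged 0.30 ± 0.55 (limma, adjusted p = 0.140). Its ratios of -0.18, 0.83, -0.16 and 0.71 followed the dye. Pairs 2 and 4, with the mutant in Cy3, were above 0, and pairs 1 and 3, with the mutant in Cy5, below it. Of the Schwann cell markers that did not pass the filter, Pmp2 was above background on no array. The part of these cells in the value of Lgi4 was not tested.

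The remaining marker lists had no called gene. With replicates left out singly, 1 choroid plexus marker was called higher without replicate 2 and 1 marker of vessels and meninges without replicate 3. Among oligodendrocyte precursor markers Vcan averaged 0.36 ± 0.18 (adjusted p = 0.179) and Pdgfra 0.11 ± 0.11 (adjusted p = 0.735), while the other 2 markers of that list, Gpr17 (-0.10 ± 0.15) and Cspg4 (-0.03 ± 0.09), had means below 0. The medians were 0.04 for the 4 precursor markers, -0.03 for the Purkinje, the granule and the GABAergic interneuron markers, -0.04 for 6 microglia markers, 0.15 for 4 choroid plexus markers and 0.22 for 4 markers of vessels and meninges. The choroid plexus gene Kl ran from -0.59 in pair 2 to 0.59 in pair 4, with a mean of 0.16 ± 0.54, so that pairs differed in these genes without a common direction. Pair 2, in which Lgi4 had its largest difference, was the lowest for the choroid plexus markers, and whether this bears on Lgi4 was not tested.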

How the data were processed

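Total RNA of the cerebellum was labelled after linear amplification from 500 ng, per the labels. The array files, as deposited, give linear intensities of spots and their background for both dyes, measured with Agilent Feature Extraction 10.5.1.1 per the file headers, and a log10 ratio that the authors' scanner software made from background-subtracted, dye-normalized intensities. The deposited value table holds those log10 ratios turned to mutant over control (largest difference 4.84e-06). Probe positions are on mm9, per the file headers.

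Intensities were corrected with normexp (offset 50, fitted without outlier-flagged spots), normalized by loess within arrays and fitted with limma 3.58.1 in R 4.3.3 (data.table version 1.17.8, jsonlite 2.0.0, statmod 1.5.0), with terms for dye and genotype, moderated variances (2 residual and 3.37 prior degrees of freedom) and Benjamini-Hochberg adjustment. Calls were made at adjusted p values below 0.05. A probe had to be well above background in the mutant or in the control channel of all 4 arrays and to have a value on at least 3, which 18025 genes did (28 lacked 1 array), and the brightest probe stood for a gene. Of the probes, 24844 were named through RefSeq by transcript and 16330 by the array file. Every ratio is within 1 array and so pairs littermates by design. All arrays shared a slide and a scan, so dye was the technical factor. In data simulated for mutant over control (18025 genes, 50 changed at each size), 28% of changes of 0.5, 86% of 1, 96% of 1.5 and 98% of 2 on the log2 scale were called. The simulated ratios were drawn for each gene independently, as normal noise with its SD over pairs plus a random dye effect. That SD already holds any dye effect of the data. Normalization and correlation between genes were not simulated, so the rates are a rough guide.

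The members, the gene lists and the tests were chosen with earlier results of these data known. Named genes were the members, the 5 closest to Lgi4, the called genes of each list (otherwise the 2 with the smallest p), Dicer1, and a few partner genes named afterwards as stated. Alternatives covered background, signal column, scaling, dye term, filter, probe choice, pairing and each replicate.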

Additional observations from a re-analysis of the deposited data

Results flagged for a closer look

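No probe of Lgi1, Lgi2, Lgi3, Lgi4, Adam11 or Adam23 had an outlying pair. Of 47 probes examined, those of the named genes included, 4 had 1 pair far from the other 3, past Dixon's 95% critical value for the gap to the nearest pair, which chance gives for about 1 probe in 20. The collagen gene Col1a1 stood at 2.06 in pair 1. Rida, one of the genes closest to Lgi4, stood at -1.14 in pair 3, above its other pairs. The glutamate transporter Slc1a2 stood at -0.41 in pair 4, and the proteoglycan gene Vcan at 0.093 in pair 3.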

How the results depend on the processing

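Values here are log2 ratios fitted with the dye term unless it was the setting changed, so those without a replicate differ from plain means over the remaining pairs. The ratio of Lgi4 ran from -1.32 to -1.06 over 18 alternatives (the same range when single replicates were left out) and lost its call without replicate 1, at -1.11. The number of family members called lower was 0 to 1 when single replicates were left out and 1 otherwise. With replicates left out singly, Lgi2 ran from -0.0019 to 0.17 and Adam23 from -0.24 to 0.53, both negative without replicate 2, and Adam11 from -0.0019 to 0.13, negative without replicate 4, while Kl ran from -0.13 to 0.46 and Folr1 from -0.11 to 0.39, both negative without replicate 4. Dicer1 stood at -0.013 with the mean over probes, and ran from -0.054 to 0.13 without single replicates. None of these was called in any setting. As reported, 106 genes were called higher and 80 lower. With the outlier flags after the background fit the counts were 50 and 32, and with median centring 73 and 66. The processed signals and the value table each gave 88 higher and 53 lower. With no dye term the counts were 149 and 115, and with no filter on dim probes 129 and 104. Leaving out single replicates gave 41 to 216 higher and 11 to 127 lower. The number of partners called lower was 0 with the flags after the fit, median signals, processed signals, the value table, median centring, no dye term, the stricter filter, the mean over probes and every probe tested on its own, and 0 to 1 without single replicates. The leucine-rich repeat list had 0 genes called higher with the flags after the fit. Without single replicates, list medians ran from -0.061 to 0.096 for the family, from -0.087 to -0.021 for the partners and from -0.050 to 0.15 for the ADAM proteases. The fit with no replicate block gave 95 genes higher and 68 lower, with Lgi4 called and the other family members not called. The cause of these shifts was not tested. With 4 pairs, small differences may go undetected, and the dim Adam22 probe limits any statement on that gene.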

Other observations

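The genes next to Lgi4 on chromosome 7, in the order of the RefSeq annotation, were looked up after its values had been seen. Fxyd1, a regulator of the sodium pump, precedes Lgi4 and had ratios of -0.64, -0.56, -0.42 and -0.49, with a mean of -0.53 ± 0.09 (n = 4, limma, adjusted p = 0.0390). Its second probe averaged -0.41 ± 0.26. The call was lost under 9 of 18 other settings, where the adjusted p of Fxyd1 ran as high as 0.285. Fxyd7, one gene farther, averaged -0.18 ± 0.48 and was not called (adjusted p = 0.811). Fxyd3 follows and overlaps Lgi4 in that annotation, and its probe was well above background on no array. The next gene, Hpn, a membrane protease, averaged 0.06 ± 0.35 (adjusted p = 0.947). The arrays do not tell whether transcripts of the overlapping genes contribute to an Lgi4 probe.

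By the annotation, Lgi1 overlaps 2 long noncoding RNA genes, Adam22 overlaps 3 noncoding or pseudogene entries and Adam23 overlaps 1 small nuclear RNA gene, while Lgi2, Lgi3 and Adam11 overlap none.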
